A study of Homo sapiens with 4 samples.

Results

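The genes described here are 9 genes of polyamine metabolism: ODC1, AMD1, SRM and SMS of the synthetic route, SAT1, SMOX and PAOX of the catabolic route, and the antizyme genes OAZ1 and OAZ2. They were chosen by symbol, as every probe set annotated with one of these names, and they are 9 of the 18417 genes that the platform annotation names singly. Each had 1 probe set, and no member symbol stood in a probe set shared by several genes. Measured values did not enter the choice by symbol, although earlier results of these arrays were known when the genes were chosen.

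Polyamines (putrescine, spermidine and spermine) are small cations that bind nucleic acids and are needed for growth. Cells make putrescine from ornithine, and add aminopropyl groups drawn from S-adenosylmethionine to reach spermidine and then spermine; acetylation and oxidation run the route backwards, and antizymes hold down ornithine decarboxylase and polyamine uptake. The prostate is known for its high synthesis and secretion of polyamines, and several genes of the pathway have been described as responsive to androgen or to MYC.

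The study set 4 arrays side by side, each a whole-transcript Affymetrix array hybridised with biotin-labelled total RNA, with 1 array per group. The groups were LTAD cells transfected with siPSF, an siRNA against PSF (the product of SFPQ, an RNA-binding protein), LTAD cells transfected with siControl, untransfected LTAD cells, and LNCaP cells. LNCaP is a human prostate cancer cell line that responds to androgen, and LTAD is a subline grown out of it under prolonged androgen deprivation, which serves as a model of castration-resistant disease. All 3 LTAD groups were kept in phenol red-free medium with 10% charcoal/dextran-stripped serum, while LNCaP cells, usually kept in full serum, spent 24 h in such medium with 2.5% stripped serum. All 4 RNAs thus came from cells without added hormone, and the sources used here give neither the siRNA dose nor the time after transfection. With 1 array per group there is no replicate spread, no test of a condition and no p-value, and every difference below is between single arrays. In place of a replicate error, each difference is set beside the distribution of the same difference over all genes kept by a filter on low values.

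Levels are log2 probe set values. The deposited arrays were not on one scale, with medians of 6.04 for siPSF LTAD, 5.98 for siControl LTAD, 7.20 for untransfected LTAD and 6.91 for LNCaP, so levels and differences are given after quantile normalization of the 4 arrays unless the deposited scale is named. A gene was kept if it reached 7.23, the median of all gene values, on at least 1 array, which held for 10117 genes. A level under that value is not shown to be above background, since no detection calls were used, and no fold is given for it. A gene was counted as higher or lower at a difference of at least 1.5-fold, or 0.58 on the log2 scale. Of the 9 members, 8 passed the filter, 7 of them on every array. PAOX passed only through the siPSF and siControl arrays, and SMOX passed on none.

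The labels were checked on SFPQ and on cell markers. SFPQ read 9.87 with siPSF and 11.23 with siControl, beside 10.82 without transfection and 10.83 in the parental LNCaP cells, so the siRNA target was lower in the array labelled siPSF. Of 10 luminal prostate markers 6 were measured, and HOXB13, FOXA1, KRT8, KRT18 and KLK2 reached the filter value on every array. The summed level of these 6 was 61.1 with siPSF, 61.6 with siControl, 67.6 in untransfected LTAD and 68.2 in LNCaP. Most of that gap was KLK3, the gene of prostate-specific antigen, and without it the sums were 54.0, 54.1, 56.6 and 55.3 in the same order of groups. None of the 3 endothelial markers reached the filter value on any array. The immune marker PTPRC was at or under 3.62 everywhere, and CD68 was the 1 immune marker of 3 above the filter value. The 4 stromal markers summed to 27.4 with siPSF, 27.6 with siControl, 25.4 in LTAD and 25.1 in LNCaP. Most of that gap was VIM, at 9.31 and 9.03 in the transfected cells against 7.15 in LTAD, under the filter value, and 7.84 in LNCaP. COL1A1 reached the filter value on every array, from 7.68 in LNCaP to 7.99 with siPSF, and read 7.84 with siControl against 7.97 in LTAD. COL3A1 and DCN were under it on every array. The 2 measured basal markers summed to 13.2, 12.9, 12.5 and 12.4.

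Among the 9 members the widest differences were those of SAT1, which encodes spermidine/spermine N1-acetyltransferase, the rate-limiting enzyme of polyamine breakdown. Its level spanned 2.79 log2 units over the 4 arrays, while the median span of kept genes was 0.54 and 159 of the 10117 spanned more than SAT1. The other 8 members spanned 0.22 to 0.68. SAT1 was lowest in both transfected LTAD arrays, highest in LNCaP, and 1.63-fold higher with siPSF than with siControl.

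**Figure D1:**
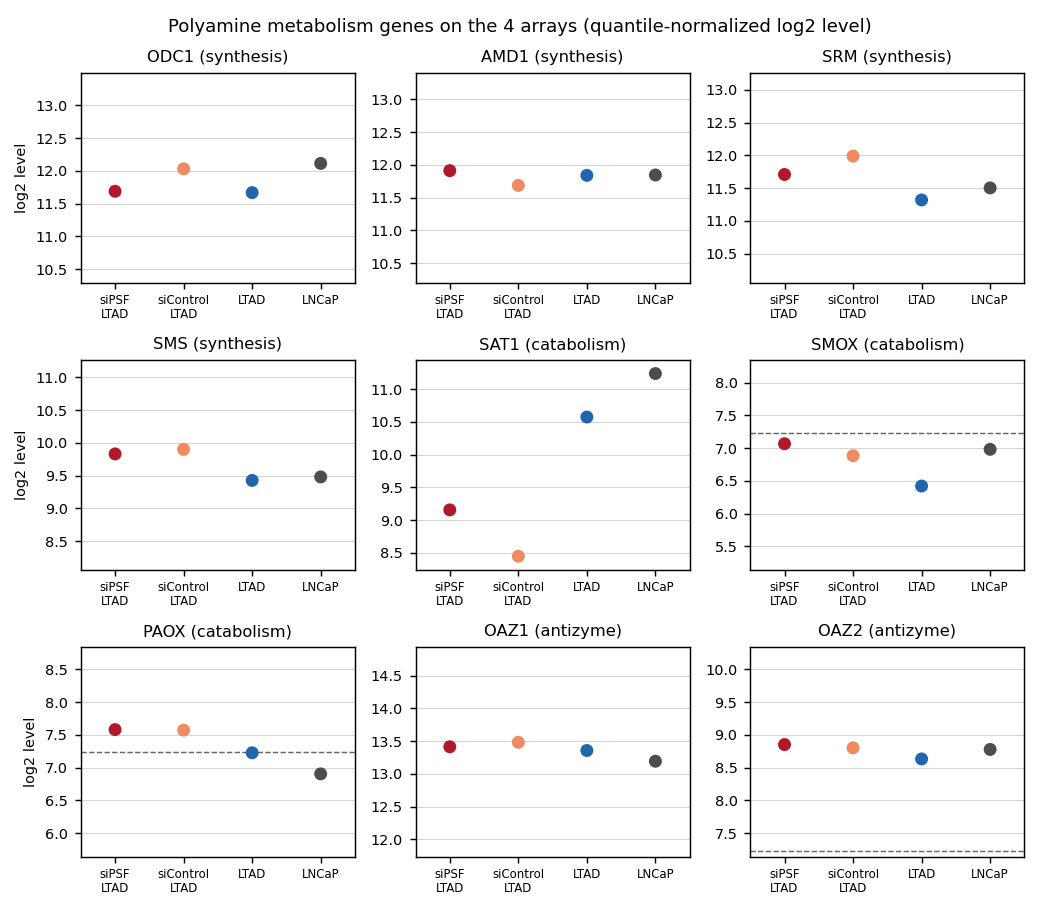
Quantile-normalized log2 level (vertical axis, 3.2 log2 units in every panel) of each polyamine gene on the siPSF LTAD, siControl LTAD, untransfected LTAD and LNCaP arrays, 1 point per array; the dashed line is the filter value of 7.23. SAT1 runs from 8.45 with siControl to 11.24 in LNCaP, and SMOX lies under the line on every array.

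The sequence before the SAT1 start site is shown because SAT1 carries the widest difference, and that before the SRM start site because SRM and ODC1 were the members whose windows held an E-box, the MYC/MAX binding motif CACGTG. Sequences are from RefSeq, build GRCh38.p14, written 5′ to 3′ on the strand of the gene. The windows run from 250 bases before to 50 bases after a start site, and 7 of the 9 members had at least 1 among the 35116 windows. Capitals mark CACGTG, and CCAAT on either strand, so that ATTGG is the same motif read from the other strand. SAT1, chrX:23782923-23783172, plus strand, 250 bases before the start site, followed by SRM, chr1:11060019-11060268, minus strand, 250 bases before the start site.
SAT1: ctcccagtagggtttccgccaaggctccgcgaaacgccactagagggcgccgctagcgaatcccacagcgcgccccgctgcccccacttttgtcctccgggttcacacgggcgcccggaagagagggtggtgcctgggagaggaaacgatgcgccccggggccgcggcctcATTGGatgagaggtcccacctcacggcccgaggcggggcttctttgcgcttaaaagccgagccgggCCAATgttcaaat
SRM: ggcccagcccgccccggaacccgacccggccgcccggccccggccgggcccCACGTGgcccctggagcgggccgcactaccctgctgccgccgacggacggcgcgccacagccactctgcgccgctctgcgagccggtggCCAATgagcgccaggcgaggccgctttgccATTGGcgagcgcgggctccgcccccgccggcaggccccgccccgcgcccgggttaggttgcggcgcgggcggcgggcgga

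SAT1 held 2 CCAAT matches, at -79 and -13 from the start site, and no E-box. SRM held an E-box at -199 and CCAAT matches at -110 and -80. ODC1 has 2 windows, and the one at the more downstream start site, chr2:10447963-10448262 on the minus strand, held 2 E-boxes, at -29 and 5 from that start site. They are shown with their surrounding bases, at chr2:10448024-10448053 and chr2:10447990-10448019.
ODC1 E-box at -29: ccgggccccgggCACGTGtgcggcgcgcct
ODC1 E-box at 5: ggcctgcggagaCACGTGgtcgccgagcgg

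Over all 35116 windows, 7.26% held CACGTG and 34.6% held CCAAT on either strand. No member window held TGACGTCA, a cAMP response element, which 1.85% of windows held, or TATGACTAA, the polyamine-responsive element, which 0.0997% held. That these letters are not in a window of this length says nothing of the factors, and binding was not measured.

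The first comparison asked what lowering PSF does in the castration-resistant model. SAT1 was the 1 member counted as higher with siPSF, and no member was counted as lower. SAT1 read 9.16 with siPSF and 8.45 with siControl, a difference of 0.71 on the log2 scale, and 33 of the 10117 kept genes had a larger positive difference. At 1.5-fold, 0.771% of kept genes were higher and 3.26% lower, and the central 90% of kept genes lay between -0.49 and 0.33. The SAT1 difference lay above that band on both scales, with 0.70 on the deposited values. It depends on which LTAD array serves as control: untransfected LTAD read 10.57, and against it SAT1 was lower with siPSF, by -1.42. The siPSF level thus lay between those of the other LTAD arrays. In RNA from whole cultures, a lower level in every cell and fewer cells with the transcript cannot be told apart.

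Among the synthetic enzymes, the siPSF array differed from the siControl array by small amounts within the central 90% of genes. ODC1, ornithine decarboxylase, which makes putrescine, read 11.69 with siPSF and 12.03 with siControl, a difference of -0.34. SRM, spermidine synthase, read 11.71 and 11.99, a difference of -0.28. MYC, whose product is known to activate ODC1 and other genes of the pathway, read 11.39 with siPSF and 11.68 with siControl, a difference of -0.29. AMD1, S-adenosylmethionine decarboxylase, the source of the aminopropyl groups, stood on the other side of 0, at 11.91 with siPSF against 11.69 with siControl, a difference of 0.23. SMS, spermine synthase, read 9.83 and 9.90. Of the 4 synthetic genes 3 lay below 0 and 1 above it, and 0 reached 1.5-fold.

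No oxidase or antizyme reached 1.5-fold between these arrays. PAOX, the peroxisomal oxidase that acts on acetylated polyamines after SAT1, read 7.58 with siPSF and 7.57 with siControl. SMOX, which oxidises spermine directly, read 7.07 and 6.88, both under the filter value. OAZ1, the major antizyme, which sends ornithine decarboxylase to the proteasome, read 13.41 and 13.48, and OAZ2, a second antizyme, 8.85 and 8.80. The median difference of all 9 members was 0.01, against -0.01 over all 18417 genes.

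**Figure D2:**
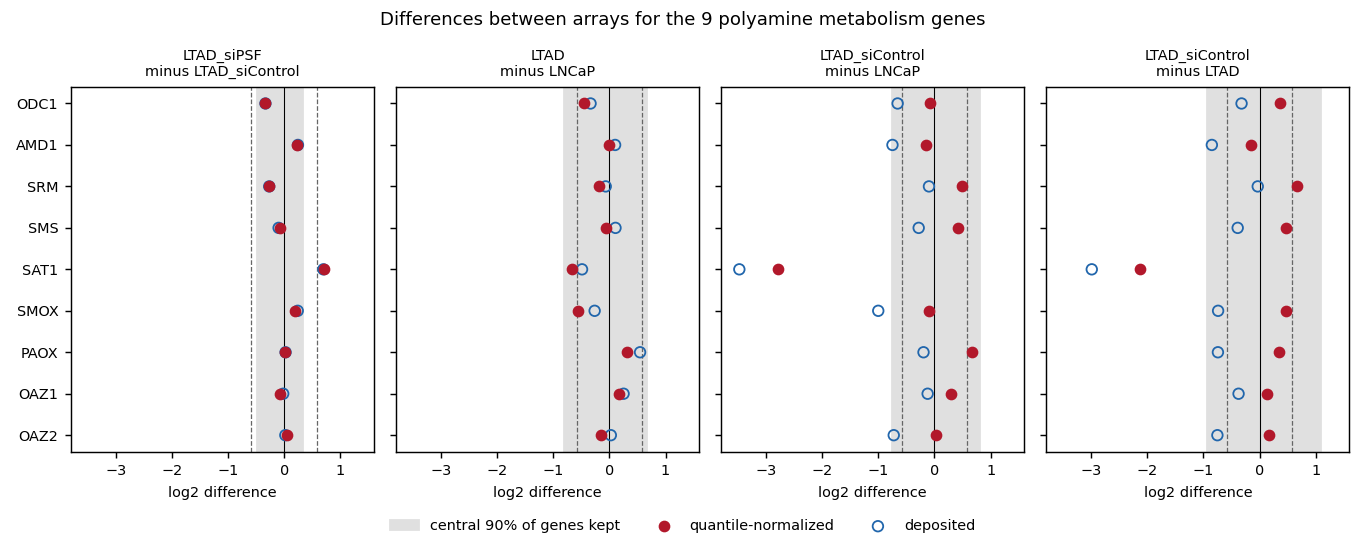
Log2 difference (horizontal axis) of the 9 genes in 4 comparisons between single arrays, filled after quantile normalization and open on the deposited values; the grey band holds the central 90% of kept genes after quantile normalization and dashed lines mark 1.5-fold. SAT1 lies to the right of the band for siPSF against siControl at 0.71, and far to the left of it where siControl LTAD is set against LNCaP (-2.79) or LTAD (-2.13).

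Untransfected LTAD was set against LNCaP to see what distinguishes the androgen-deprived line from its parent. After quantile normalization 7 of the 9 members lay below 0, among them AMD1 at -0.01 and SMOX under the filter value, with a member median of -0.15 beside 0.01 over all genes, and 50.5% of kept genes lay above 0. With the deposited levels 4 members lay below 0 and 5 above, with a median of 0.03 beside 0.26, so the direction of most members turns with the scale. SAT1 read 10.57 in LTAD and 11.24 in LNCaP, a 1.58-fold lower level (difference -0.66), and was the 1 member counted as lower, while none was counted as higher. In the same comparison 9.05% of kept genes were lower and 6.63% higher, and the central 90% ran from -0.81 to 0.67, so the SAT1 difference lay inside the spread of genes in general. On the deposited values it was -0.49, under 1.5-fold. ODC1 read 11.67 in LTAD against 12.11 in LNCaP, a difference of -0.45, also inside that band. AMD1, SRM and SMS differed by -0.01, -0.18 and -0.05. SMOX read 6.42 and 6.98, both under the filter value, and PAOX 7.23 and 6.91, also under it, the first by less than 0.01. OAZ1 differed by 0.16 and OAZ2 by -0.15.

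Line and culture cannot be told apart in this comparison, since the serum share differed. KLK3 read 11.06 in LTAD against 12.89 in LNCaP, and KLK2, another androgen-induced kallikrein, 9.35 against 9.31. Whether androgen signalling had a part in the SAT1 and ODC1 values was not tested.

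Setting siControl LTAD against LNCaP gave a far wider gap for SAT1. It read 8.45 in siControl LTAD and 11.24 in LNCaP, 6.91-fold lower (difference -2.79), and 51 of the 10117 kept genes had a more negative difference. The size depends on the scale. The SAT1 difference was -3.48 on the deposited values, where the median over kept genes was -0.69, and -2.55 with each array centred on its median. At 2-fold, 2.95% of kept genes were lower; at 1.5-fold, 8.27% were lower and 10.3% higher. PAOX was the 1 member counted as higher, at 7.57 against a LNCaP level of 6.91 under the filter value, and on the deposited values its difference was -0.20. SRM read 11.99 against 11.50 and SMS 9.90 against 9.48, differences of 0.49 and 0.42 within the central 90% of -0.76 to 0.80. ODC1, AMD1, SMOX and OAZ2 lay within 0.16 of their LNCaP levels, and OAZ1 was at 13.48 against 13.19. With siPSF LTAD in place of siControl LTAD, SAT1 was 4.23-fold lower than in LNCaP, where 11.0% of kept genes were lower and 10.9% higher at 1.5-fold and PAOX was again counted as higher, against the LNCaP level under the filter value. These comparisons share the LNCaP array, and line, serum share, transfection and array cannot be told apart in them.

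SiControl LTAD and untransfected LTAD are the same line without an siRNA to PSF, and their arrays differed widely. SAT1 read 8.45 in siControl LTAD and 10.57 in LTAD, 4.36-fold lower (difference -2.13), and the same gene had been 1.63-fold higher with siPSF than with siControl. Against LTAD the siControl difference was -2.99 on the deposited values and -1.77 with each array centred on its median. Between these arrays 4.36% of kept genes were at least 2-fold lower, and at 1.5-fold 11.7% were lower and 16.7% higher. Only 109 of the 10117 kept genes had a more negative difference than SAT1. SRM was the 1 member counted as higher, at 11.99 against 11.32, 1.59-fold on the quantile-normalized scale. The other synthetic genes read 12.03 against 11.67 for ODC1, 11.69 against 11.84 for AMD1 and 9.90 against 9.43 for SMS. OAZ1 read 13.48 against 13.36, OAZ2 8.80 against 8.63 and PAOX 7.57 against 7.23, while SMOX, at 6.88 against 6.42, was under the filter value on both arrays. The median of the 9 members was 0.35, and that of all genes 0.07.

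Transfection, control siRNA and array cannot be told apart here. KLK3 moved with SAT1 between these arrays, at 7.47 in siControl LTAD against 11.06 in LTAD. VIM moved the other way, from an LTAD level under the filter value. Between siPSF and siControl KLK3 read 7.11, under the filter value, and 7.47, opposite in sign to SAT1. The part of KLK3 and VIM in the SAT1 result was not tested. On the deposited scale the median over kept genes was itself -0.87. There all 9 members were negative and 4 of the 8 kept members counted as lower, beside 70.9% of kept genes. SRM was then at -0.03, so it was higher only after normalization. The gap between the deposited columns was not the same at every level. For siControl LTAD and LTAD the lowest values were 1.96 and 2.06, the medians 5.98 and 7.20 and the highest values 14.23 and 14.72. The median over kept genes is therefore no measure for a gene as high as SRM. Against LNCaP, deposited values likewise counted 4 kept members of siControl LTAD as lower beside 60.0% of kept genes. SAT1 had the most negative difference of the 9 on both scales in all 3 comparisons other than siPSF against siControl, and the most positive one in that. These comparisons are not independent. The siControl array, with the lowest SAT1 level, enters those with siPSF, LNCaP and LTAD, so its single reading weighs on each of them. With siPSF LTAD in place of siControl LTAD, SAT1 was 2.67-fold lower than in untransfected LTAD, where 13.0% of kept genes were lower and 15.6% higher at 1.5-fold.

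Within each array, SAT1 stood at percentile 80.0 of all gene levels with siPSF, 68.5 with siControl, 94.1 in LTAD and 97.1 in LNCaP. A percentile is not affected by a shift of a whole array. Quantile normalization itself sets each level by its rank within the array. The percentiles therefore restate the normalized levels, and their having the same order of arrays is no separate check.

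The kept genes whose 4 centred levels lay nearest to those of SAT1, by Euclidean distance over the 4 arrays, were SWAP70, LCP1, AADAT, ELL2 and CYP1A1, at distances of 0.37 to 0.50, against a median of 2.30 over all kept genes. LCP1, an actin-bundling protein, read 7.77 with siPSF, 7.58 with siControl, 9.52 in LTAD and 10.14 in LNCaP. ELL2, an elongation factor for RNA polymerase II, read 7.51, 7.18, 8.64 and 9.49. AADAT, a mitochondrial aminotransferase, read 8.01, 7.93, 9.57 and 10.46. SWAP70 and CYP1A1 were under the filter value in both transfected arrays, and CYP1A1 also in untransfected LTAD. All 5 were lowest in siControl LTAD and highest in LNCaP, as the measure of likeness requires of near profiles.

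The genes next to SAT1 on the X chromosome differed less than SAT1, and in both directions. Of the 3 nearest measured protein-coding genes on either side, PRDX4, ACOT9, APOO and KLHL15 were kept. For siControl LTAD against LTAD their differences were 0.90 for PRDX4, a peroxiredoxin, -0.66 for ACOT9, an acyl-CoA thioesterase, 0.39 for APOO, a mitochondrial inner membrane protein, and 0.73 for KLHL15, beside -2.13 for SAT1. ACOT9, the nearest gene on one side, was low on both transfected arrays like SAT1, at 8.89 with siPSF and 8.83 with siControl, beside 9.49 in LTAD and 9.29 in LNCaP. For siPSF against siControl the 4 neighbours lay between -0.26 and 0.06. These neighbours were looked up after the SAT1 values were seen.

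**Figure D3:**
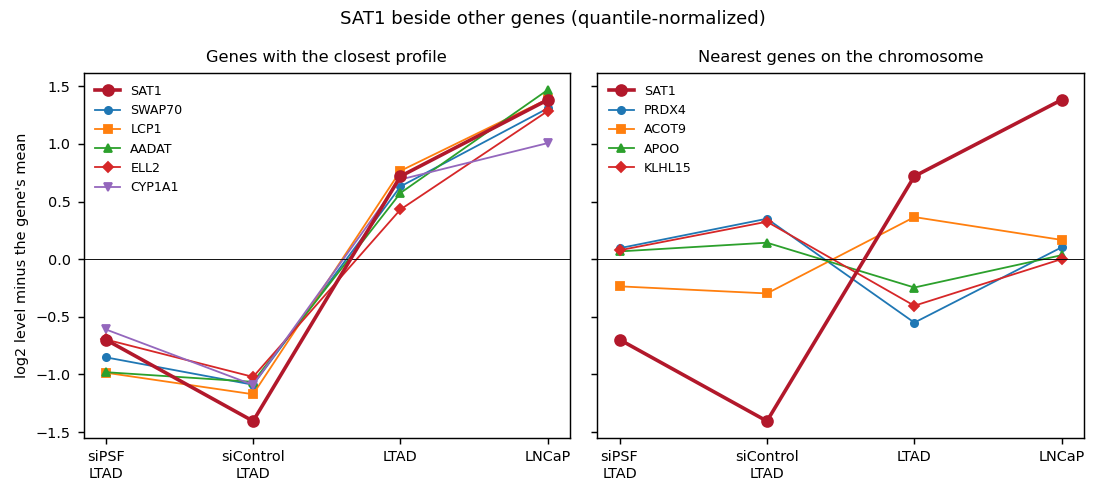
Quantile-normalized log2 level minus each gene's own mean (vertical axis) on the 4 arrays, for SAT1 with the 5 genes of closest profile (left) and with its 4 kept chromosome neighbours (right). The 5 close genes are low on both transfected arrays and high in LNCaP like SAT1, while PRDX4, APOO and KLHL15 are lowest in untransfected LTAD and ACOT9 is lowest with siControl and highest in LTAD, over a narrower range than SAT1.

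Genes around the pathway were read from 6 lists with 49 entries, of which 46 were measured and 34 kept; the entries not measured were not analysed here. For siPSF against siControl 0 of the 34 were higher and 0 lower at 1.5-fold, where the background was 0.771% and 3.26%. AZIN1, the antizyme inhibitor that frees ornithine decarboxylase, read 9.26 with siPSF, 9.68 with siControl, 9.84 in LTAD and 10.11 in LNCaP, the lowest level being that of siPSF. Its difference for siPSF against siControl was -0.42. SAT2, a paralogue of SAT1, read 9.43, 9.26, 9.15 and 8.99 in the same order of groups. It did not follow the SAT1 levels, being lowest in LNCaP.

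Of the 3 kept hypusination genes, which use spermidine to modify the translation factor eIF5A, EIF5A2 was the 1 that reached 1.5-fold. It read 7.65 in siControl LTAD and 6.92 in LTAD, the second under the filter value, where 16.7% of kept genes were higher and 11.7% lower. On the deposited values its difference was -0.37. The enzymes DHPS and DOHH differed by 0.25 and 0.08 in that comparison.

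Methionine cycle and methylthioadenosine salvage genes, which supply and recycle the aminopropyl donor, had 3 of 9 kept genes higher and 0 lower in siControl LTAD against LTAD, beside backgrounds of 16.7% and 11.7%. MRI1, a salvage isomerase, read 9.09 in siControl LTAD against 8.23 in LTAD, and AHCY, which clears S-adenosylhomocysteine, 10.82 against 10.10. MTAP, which breaks down the methylthioadenosine that SRM and SMS release, read 7.42 with siPSF, 7.74 with siControl, 7.18 in LTAD and 7.63 in LNCaP. Its LTAD level was under the filter value. All 9 lay below 0 for LTAD against LNCaP after quantile normalization, with a median of -0.27 and none at 1.5-fold, where 50.5% of kept genes lay above 0. On the deposited values MRI1 and APIP, another of the 9, lay above 0 in that comparison, at 0.07 and 0.05. The rest lay below it, where 70.7% of kept genes lay above 0. On the deposited values MRI1 and AHCY differed by -0.08 and -0.09 between siControl LTAD and LTAD, above the median of -0.87 of all kept genes. The gap between these columns was not the same at every level, so that median is no measure for genes of their level.

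Among 7 kept genes of arginine and ornithine supply, ARG2, the mitochondrial arginase that makes ornithine, varied most. It read 9.16 with siPSF, 8.99 with siControl, 10.78 in untransfected LTAD and 9.73 in LNCaP, so that it was highest in untransfected LTAD. Its differences were 1.05 for LTAD against LNCaP and -1.79 for siControl LTAD against LTAD. SLC7A2, a cationic amino acid transporter, ran the other way, at 9.41 in siControl LTAD against 8.70 in LTAD, but at -0.20 on the deposited values. ASL, argininosuccinate lyase, read 7.64 in siControl LTAD against 8.32 in LNCaP. OAT, ornithine aminotransferase, was under the filter value on every array.

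Of 6 kept polyamine transport genes, ATP13A3, an ATPase of polyamine transport, was the 1 that reached 1.5-fold in any of the 4 comparisons. It read 9.66 in LTAD against 10.26 in LNCaP, where 9.05% of kept genes were lower and 6.63% higher. On the deposited values its difference was -0.40, under 1.5-fold. OAZ3, the third antizyme, passed the filter only through untransfected LTAD, at 7.40. It was counted as higher there than in LNCaP, at 6.75, and as lower in siControl LTAD, at 6.79. Both of those levels were under the filter value, so its counts follow from the array that let it pass. In the MYC network, MYC read 11.39 with siPSF, 11.68 with siControl, 10.55 in LTAD and 10.99 in LNCaP, 1 of 6 kept genes higher in siControl LTAD than in LTAD. The array order of MYC, highest with siControl and lowest in LTAD, was also that of SRM. SMS, whose window held no E-box, and the SAT1 neighbours APOO and KLHL15 had the same order. It was not that of ODC1, which was highest in LNCaP. On the deposited values MYC differed by 0.36 and SRM by -0.03 between siControl LTAD and LTAD. Whether MYC had a part in the levels of any member was not tested. MXD4 and MXD1, antagonists of MYC that pair with MAX, were among 3 of 6 lower genes, at 8.26 against 9.30 and 8.08 against 8.75. The third was MAX itself, at 8.66 against 9.29. MNT, also in the list, lay on the other side of 0, at 0.165. In this comparison 16.7% of kept genes were higher and 11.7% lower. Over the 6 lists, 6 of 34 genes (17.6%) were higher and 5 (14.7%) lower in siControl LTAD against LTAD, close to the background of all genes. The higher ones include EIF5A2 and the lower ones OAZ3, each under the filter value on 1 of these arrays. The background was counted under the same filter.

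**Figure D4:**
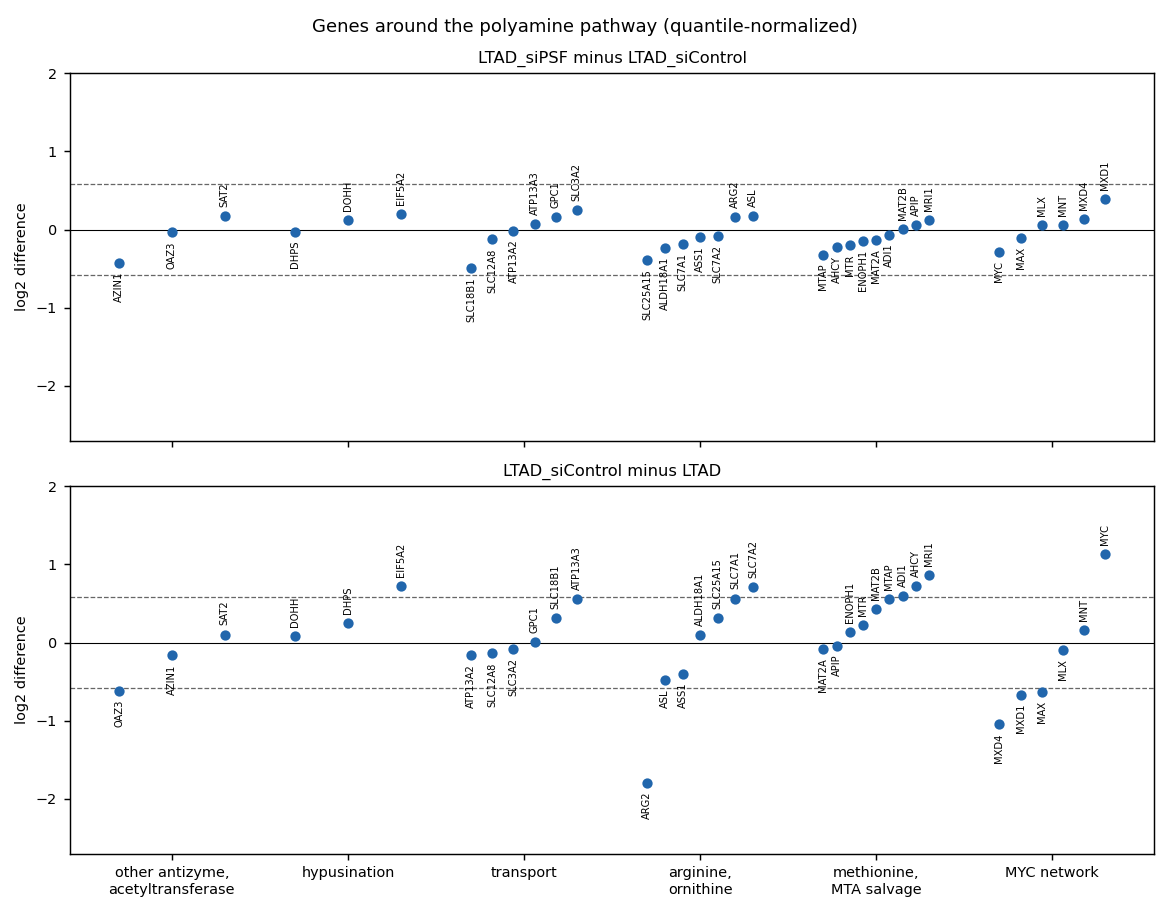
Log2 difference after quantile normalization (vertical axis) of the 34 kept genes in 6 lists around the polyamine pathway, for siPSF against siControl LTAD (top) and siControl against untransfected LTAD (bottom), 1 point per gene; dashed lines mark 1.5-fold. No gene passes a line in the top panel, and ARG2 at -1.79 and MYC at 1.13 lie farthest from 0 in the bottom panel.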

How the data were processed

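Log2 probe set levels were deposited for 33297 probe sets on 4 arrays; per the submitters' processing notes, the authors used Affymetrix Expression Console and RMA. The sources used here do not give their versions or settings, or the set of arrays that RMA was run on. RMA pools probes, so the level of a gene with near-identical copies may include them: RefSeq lists pseudogenes for AMD1 (4), SRM (3), SMS (1) and OAZ1 (1), and cross-hybridisation was not tested.

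Groups came from the array titles. Probe sets with 1 gene symbol in the platform annotation (19460) were named, 19429 of them updated through Entrez IDs to the RefSeq table of GRCh38.p14; 1754 with several symbols and 12083 unnamed here were left out. Where a gene had more than 1 probe set, that of highest mean over the arrays was used. The 4 arrays were quantile-normalized, and differences between arrays were computed in Python 3.11.15 with pandas 2.3.3 and NumPy 2.4.6. The computation was tested on simulated data. The simulated arrays differed by a constant shift and little noise, unlike the deposited ones, so that test bears on the code only.

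Named genes were all members, SFPQ, MYC, AZIN1, MTAP, up to 2 genes per list and direction with the largest difference of at least 1.5-fold, and the 5 genes nearest in profile to the member of widest range; further genes given as examples were chosen after their values were seen. The members and lists were chosen with earlier results of these data known. The number of arrays, 1 per group, limits the precision. Alternatives covered the scale, the probe set rule, the fold, the filter and the control array.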

Additional observations from a re-analysis of the deposited data

How the results depend on the processing

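Of 60 recomputed counts of members at least 1.5-fold higher or lower, 44 stayed within 1.5 times the reported count. The 44 include counts that the setting could not move. Taking the mean of probe sets cannot change the level of a member, since each had 1 probe set. Many other counts were 0 in both settings, so the 44 are no measure of stability. At a 2-fold threshold the count of higher members was 0 for siPSF against siControl, for siControl LTAD against LNCaP and for siControl LTAD against LTAD, and the count of lower members was 0 for LTAD against LNCaP, since SAT1 at 0.71 and -0.66, PAOX and SRM lie under 2-fold there. On the deposited values the count of lower members was 0 for LTAD against LNCaP and 4 for siControl LTAD against either untransfected line, and the count of higher members was 0 in both of the last. There PAOX reversed to -0.20 against LNCaP and SRM to -0.0325 against LTAD. Most genes were lower in the deposited siControl column, by a gap that was not the same at every level. With each array centred on its median, 2 members were lower in LTAD against LNCaP, and 4 were higher in siControl LTAD against LNCaP and 4 against LTAD. The share of all kept genes was not computed on that scale, so these counts cannot be compared with the rate over genes in general. Their cause was not tested. With a filter at the 75th percentile PAOX was left out, and 0 members were higher for siControl LTAD against LNCaP. With untransfected LTAD in place of siControl LTAD as the control for siPSF, 0 members were higher, 1 was lower, and SAT1 reversed to -1.42; with siPSF LTAD in place of LTAD against LNCaP, 1 was higher. The cause of these shifts was not tested. No paired analysis was possible because each group held 1 array. Without detection calls, the signal over background of SMOX, and of PAOX in LTAD and LNCaP, is unknown.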
